A study of Homo sapiens with 12 samples.

Results

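The transcriptional response of a pancreatic cancer cell line to gemcitabine was compared between a low and a high glutamine level. For each gene the quantity described is the interaction, that is the drug response at 40 mM L-glutamine minus the drug response at 2 mM, both on the authors' log2 scale. Genes entered when at least 3 of the 12 libraries held 1 RPM (reads scaled to library depth) or more, which kept 12789 of the 15090 listed genes. Of these, 281 genes passed for the interaction at a Benjamini-Hochberg adjusted p below 0.05 in limma, a linear model with moderated variances fitted over all genes. The interaction was above 0 for 93 of them and below 0 for 188. By their 2 drug responses the 281 genes fell into 70 that gained a response at 40 mM, 110 that lost it, 17 in which it reversed, 34 in which it was strengthened and 50 in which it was weakened. These classes were 0.547%, 0.86%, 0.133%, 0.266% and 0.391% of the tested genes.

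Gemcitabine is a deoxycytidine analogue that enters cells through nucleoside transporters and is phosphorylated by deoxycytidine kinase. Its diphosphate inhibits ribonucleotide reductase and its triphosphate is built into DNA, where it halts replication forks, so that drug-treated cells collect in S phase and switch on checkpoint genes. Glutamine is the amide nitrogen donor for purine, CTP and hexosamine synthesis, feeds the citric acid cycle through glutamate, and is consumed heavily by pancreatic cancer cells, which also depend on glucose uptake and lactate-producing glycolysis.

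The cells were MIA PaCa-2, an established human pancreatic cancer line labelled as wild type, in 4 groups of 3 libraries each. The groups were 2 mM L-glutamine without drug, 2 mM with 0.5 µM gemcitabine, 40 mM without drug and 40 mM with 0.5 µM gemcitabine, all for 48 h in RPMI 1640 made without glutamine to which L-glutamine was added back. The no-drug 2 mM group is the baseline and there was no group without glutamine. The design text calls the 3 libraries of a group biological triplicates. Libraries are named below by glutamine level, drug and replicate number, for example 40 mM drug 1.

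Total recovered reads ran from 21723094 to 32811746 per library, and a tested gene had a median of 715 reads. The line's keratin and vimentin markers KRT8, KRT18 and VIM were all tested, with KRT8 between 1355 and 2357 RPM, and none of the 6 acinar and 4 islet markers was among the listed genes. Of 6 duct markers KRT19 (196 to 291 RPM), SOX9 (238 to 267 RPM) and MUC1 (12.6 to 34.8 RPM) were tested, and EPCAM, CDH1 and KRT7 were not listed. Of 6 fibroblast markers COL1A2 (582 to 897 RPM), COL3A1 (11.1 to 15.6 RPM) and COL1A1 (0.423 to 1.61 RPM) were tested, and DCN, LUM and PDGFRB were not listed. The summed fibroblast markers moved with the groups, at 761 to 784 RPM at 2 mM without drug, 596 to 644 with drug, 882 to 911 at 40 mM without drug and 663 to 716 with drug, and their part in the interaction was not tested. The endothelial marker CDH5 and the immune markers CD14 and LYZ stayed below the filter, at no more than 0.985 RPM. The 3 libraries of 40 mM with drug stood apart technically: their scaling factors were 1.026 to 1.029 against at most 1.002 in the other 9 libraries, and long non-coding RNAs took 0.678% to 0.686% of their reads against at most 0.662%. These features coincide with a group, so their part in the interaction cannot be told apart from the treatment in the libraries themselves, and the interaction is given below under other scalings too.

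The drug response itself was broadly shared between the 2 glutamine levels. At 2 mM 34.6% of tested genes passed for gemcitabine and at 40 mM 30.3% did, in libraries that do not overlap, and across genes the 2 responses had a Pearson r of 0.72, given as a description since genes are not independent. Against that, 2.2% of tested genes passed for the interaction, 0.727% above 0 and 1.47% below 0. The differences were small in size. The median size of a passing interaction was 0.27 on the log2 scale, the smallest was 0.13 and the largest 0.97, none reached 2-fold, and 14 reached 1.5-fold. The median standard error over all tested genes was 0.097, and the smallest ratio of an interaction to its standard error among the calls was 3.57, so that a gene with the median error needed an interaction of about 0.35 to pass. At an unadjusted p below 0.05 the counts were 795 above 0 and 1147 below 0. All calls depended on letting the moderated variance follow a gene's mean level (a mean-variance trend). Without that trend limma called 0 genes for the interaction, with a smallest adjusted p of 0.051, while 1700 genes had an unadjusted p below 0.05.

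**Figure D1:**
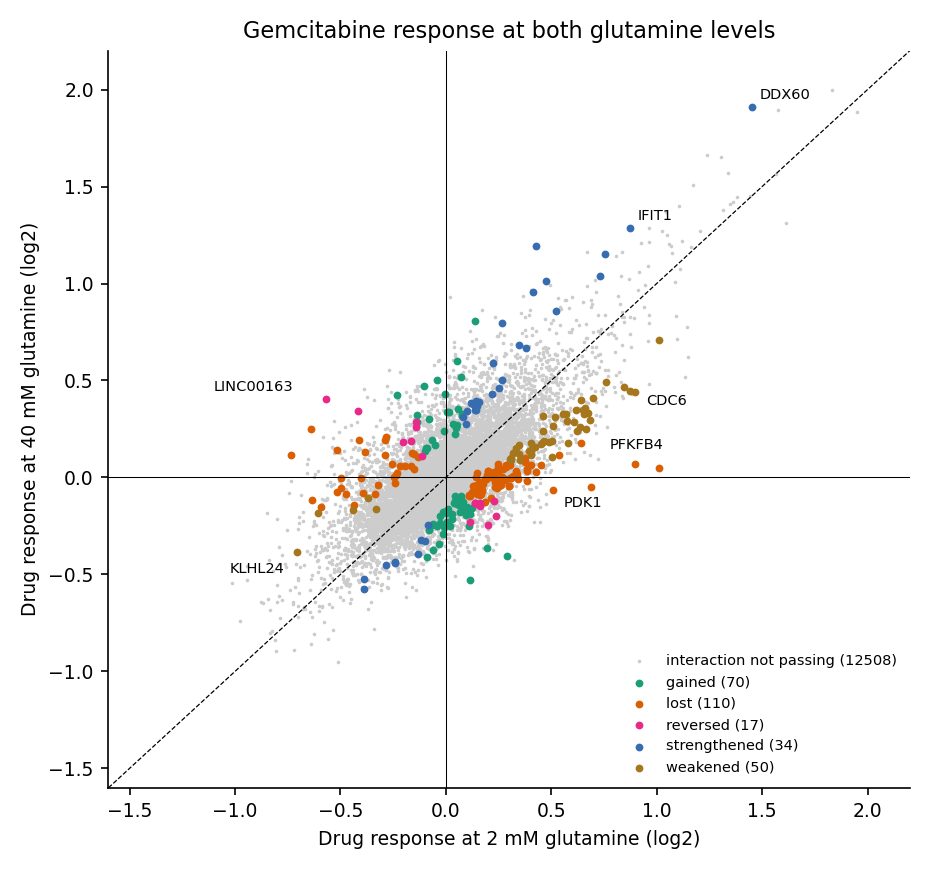
Drug response (log2 difference between gemcitabine and no drug) at 2 mM glutamine on the x axis and at 40 mM on the y axis, 1 point per tested gene, coloured by class where the interaction passed. The dashed line marks equal responses; the 281 coloured genes flank it, with lost genes such as PFKFB4 and PDK1 near 0 on the y axis and gained genes near 0 on the x axis.

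The excess of interactions below 0 depended on how the libraries were scaled. On the deposited values 66.9% of the calls were below 0, whereas the counts above and below 0 were 116 and 96 after quantile normalization, 139 and 97 on each library's own total, 97 and 157 with median-of-ratios size factors, 116 and 108 after cyclic loess, and 138 and 125 after removal of each library's trend with level, GC content and length. The median interaction of all tested genes was -0.0069 on the deposited values and lay between -0.0011 and 0.025 under these other settings. Of the 281 calls, 156 (55.5%) were kept with the same sign under all 5 of these settings, 75 of the 93 above 0 and 81 of the 188 below 0. By class, 15 of 17 reversed, 36 of 50 weakened, 23 of 34 strengthened, 33 of 70 gained and 49 of 110 lost calls were kept.

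The 4 genes just inside the threshold were FOXD1, TMEM69, IRS1 and GRAMD1A, with interactions of -0.39, 0.27, -0.18 and 0.25 and adjusted p from 0.0495 to 0.0496. The 4 just outside were FAM162A, CDC20, TFRC and AKR7A2, at -0.34, 0.17, -0.15 and -0.20 with adjusted p from 0.0501 to 0.0504.

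The classes were defined by which of the 2 drug responses passed. Most lost responses were rises: 79 genes rose with drug at 2 mM (median 0.25) and had a median drug response of -0.0049 at 40 mM, and 31 fell at 2 mM (median -0.32) with a median of 0.043 at 40 mM. Among gained responses, 45 were falls (median -0.18 at 40 mM, 0.044 at 2 mM) and 25 were rises (median 0.31 at 40 mM, -0.0029 at 2 mM). In 10 reversed genes a rise at 2 mM became a fall at 40 mM, and in 7 a fall became a rise. Weakening touched mostly rises, 45 of 50, with medians of 0.51 at 2 mM and 0.24 at 40 mM, and strengthening also mostly rises, 25 of 34, with medians of 0.25 and 0.50. No gene passed for the interaction with neither drug response passing. A response that passes at a single level may still be present at the other below the threshold: of the 79 lost rises, 11 had an adjusted p below 0.1 at 40 mM.

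Followed over the 4 groups, the classes differed in where the levels parted. The glutamine differences that follow share libraries with the interaction and are given as descriptions. Lost rises had a median level 0.11 higher at 40 mM than at 2 mM without drug and 0.16 lower with drug, and weakened rises were 0.15 higher without drug and 0.11 lower with drug. Gained rises ran the other way, 0.16 lower at 40 mM without drug and 0.15 higher with drug. Gained falls were close together without drug, at a median difference of 0.049, and 0.19 lower at 40 mM with drug.

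**Figure D2:**
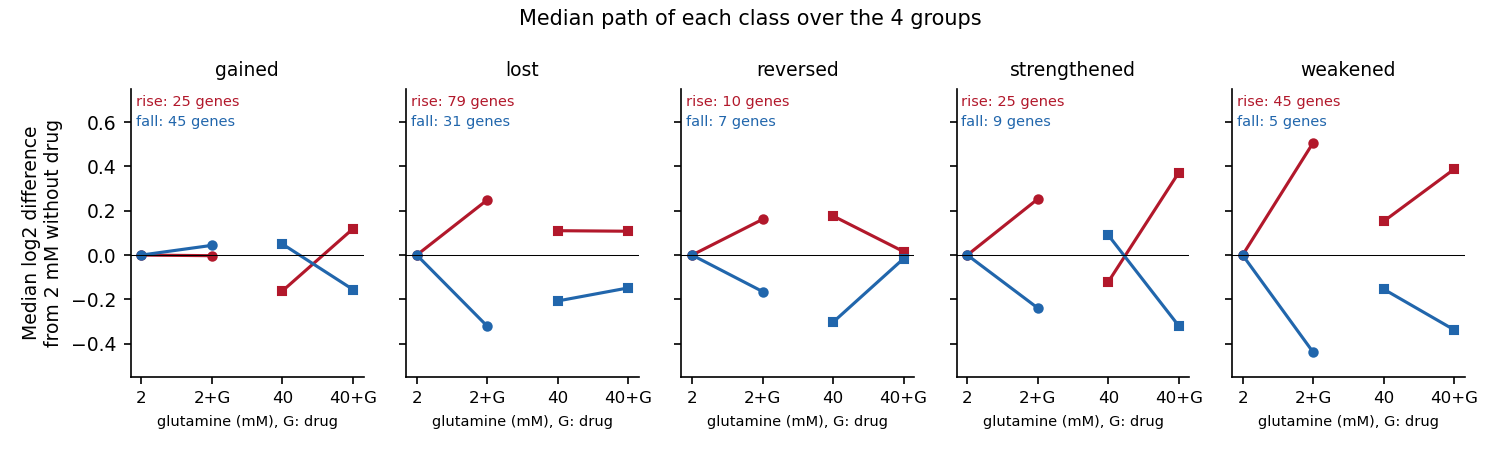
Median log2 difference from the 2 mM no-drug group, over the genes of each class, in the 4 groups on the x axis (glutamine in mM, G marks gemcitabine); red lines are genes whose drug response was a rise and blue lines genes in which it was a fall, taken at 40 mM for gained and strengthened genes and at 2 mM otherwise. Lost rises go up by a median of 0.25 at 2 mM and stay level at 40 mM, where they start higher.

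In the list of glycolysis and hypoxia genes, every interaction that passed was below 0. Of the 36 tested genes, 14 had an interaction below 0 and none above 0, against 1.47% and 0.727% of all tested genes, and the list's median interaction was -0.21 against -0.0069 over all. Its drug response at 2 mM had a median of 0.14, with 17 rises and 3 falls (17.5% and 17.1% of all tested genes rose and fell). It had a median of -0.049 at 40 mM, with 3 rises and 10 falls (14.1% and 16.2% of all tested genes). Of the 14 genes, 7 lost a rise, 6 gained a fall and LDHA reversed. The same list had 9 to 17 genes below 0 over the other settings with a mean-variance trend, none above 0, and 11 to 16 when each library was left out in turn. Without that trend 0 of its genes passed.

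PFKFB4 makes the bisphosphate that activates phosphofructokinase. It measured 20.9, 17.7 and 22.2 RPM at 2 mM without drug and 38.2, 37.7 and 39.5 RPM with drug. At 40 mM PFKFB4 measured 37.1, 26.2 and 29.9 RPM without drug and 32.8, 28.0 and 36.7 RPM with drug. The 2 mM libraries without drug were the lowest 3 and did not overlap the drug-treated ones, whereas the 2 groups at 40 mM overlapped. Its drug response was 0.90 ± 0.091 at 2 mM and 0.07 ± 0.091 at 40 mM, a difference of -0.83 ± 0.13, limma adjusted p = 0.000217. PDK1, the kinase that shuts pyruvate out of the mitochondrial dehydrogenase, measured 46.6, 38.7 and 47.8 RPM at 2 mM without drug and 62.4, 60.4 and 67.0 RPM with drug. At 40 mM PDK1 measured 61.1, 55.6 and 56.7 RPM without drug and 55.7, 52.8 and 57.0 RPM with drug. Again only the 2 mM pair separated, and its response was 0.51 ± 0.06 at 2 mM and -0.064 ± 0.06 at 40 mM (interaction -0.57 ± 0.085, limma adjusted p = 0.00012). SLC2A1, the glucose carrier GLUT1, measured 91.3, 88.4 and 85.9 RPM at 2 mM without drug and 122, 109.7 and 115 RPM with drug. At 40 mM SLC2A1 measured 119, 112 and 115 RPM without drug and 111, 114 and 116 RPM with drug. Its drug response was 0.38 ± 0.041 at 2 mM and -0.017 ± 0.041 at 40 mM, and both 40 mM groups lay at the level of the drug-treated 2 mM group (interaction -0.40 ± 0.058, limma adjusted p = 0.000112).

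LDHA, the lactate dehydrogenase subunit that regenerates NAD from pyruvate, changed direction. It measured 1316, 1264 and 1332 RPM at 2 mM without drug and 1458, 1417 and 1434 RPM with drug. At 40 mM LDHA measured 1448, 1422 and 1463 RPM without drug and 1328, 1294 and 1332 RPM with drug. The drug-treated libraries lay above the untreated ones at 2 mM and below them at 40 mM, without overlap at either level, and the response went from 0.14 to -0.13 (interaction -0.27 ± 0.037, limma adjusted p = 6.37e-05). PKM, pyruvate kinase, gained a fall. It measured 2548, 2580.4 and 2569 RPM at 2 mM without drug and 2651, 2555 and 2603 RPM with drug. At 40 mM PKM measured 2859.9, 2836 and 2905 RPM without drug and 2418, 2351 and 2459 RPM with drug, so that drug-treated and untreated libraries overlapped at 2 mM and were apart at 40 mM (interaction -0.27 ± 0.036, limma adjusted p = 4.71e-05). The other falls gained at 40 mM were in GAPDH (-0.016 to -0.29), ENO1 (0.063 to -0.14), TPI1 (0.059 to -0.14), GPI (0.10 to -0.19) and PGAM1 (0.073 to -0.10), enzymes of the glycolytic chain. The other lost rises were in PGK1 (0.30 to -0.043), PFKP (0.28 to 0.066), EGLN1 (0.23 to -0.022), an oxygen-sensing prolyl hydroxylase, and ALDOC (0.69 to -0.051). Each pair of values is the log2 drug response at 2 mM followed by that at 40 mM.

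These 14 calls were not equally firm. Those of EGLN1, PGAM1 and ALDOC ended when single libraries were left out, and those of GAPDH, ENO1, EGLN1, PGAM1 and ALDOC ended under at least 1 of the 5 other scalings. The GPI call ended with robust moderation of the variances. The EGLN1 call ended without 2 mM no-drug 3, 2 mM drug 1, 40 mM no-drug 1 or 40 mM drug 2 (interaction -0.24 to -0.21, adjusted p = 0.053 to 0.067). The PGAM1 call ended without 2 mM no-drug 1, 2 mM no-drug 2, 2 mM drug 1, 2 mM drug 3, 40 mM no-drug 3, 40 mM drug 1 or 40 mM drug 2 (interaction -0.17 to -0.15, adjusted p = 0.0515 to 0.0973). The ALDOC call ended without 2 mM no-drug 2, 2 mM drug 1, 2 mM drug 3, 40 mM no-drug 1, 40 mM no-drug 3, 40 mM drug 2 or 40 mM drug 3 (interaction -0.79 to -0.46, adjusted p = 0.0518 to 0.151). The remaining 22 tested members did not pass, among them HK2 at -0.25 (adjusted p = 0.121), HK1 at -0.12 (adjusted p = 0.182) and SLC2A3 at 0.25 (adjusted p = 0.374). Hypoxia genes of the list were also among those that did not pass. They included VEGFA (0.029), ADM (0.025), KDM3A (-0.072), NDRG1 (-0.11), BNIP3L (-0.12) and P4HA2 (-0.12). P4HA1 (-0.21), MXI1 (-0.19), HILPDA (-0.37) and CA12 (-0.40) lay further below 0 without passing.

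**Figure D3:**
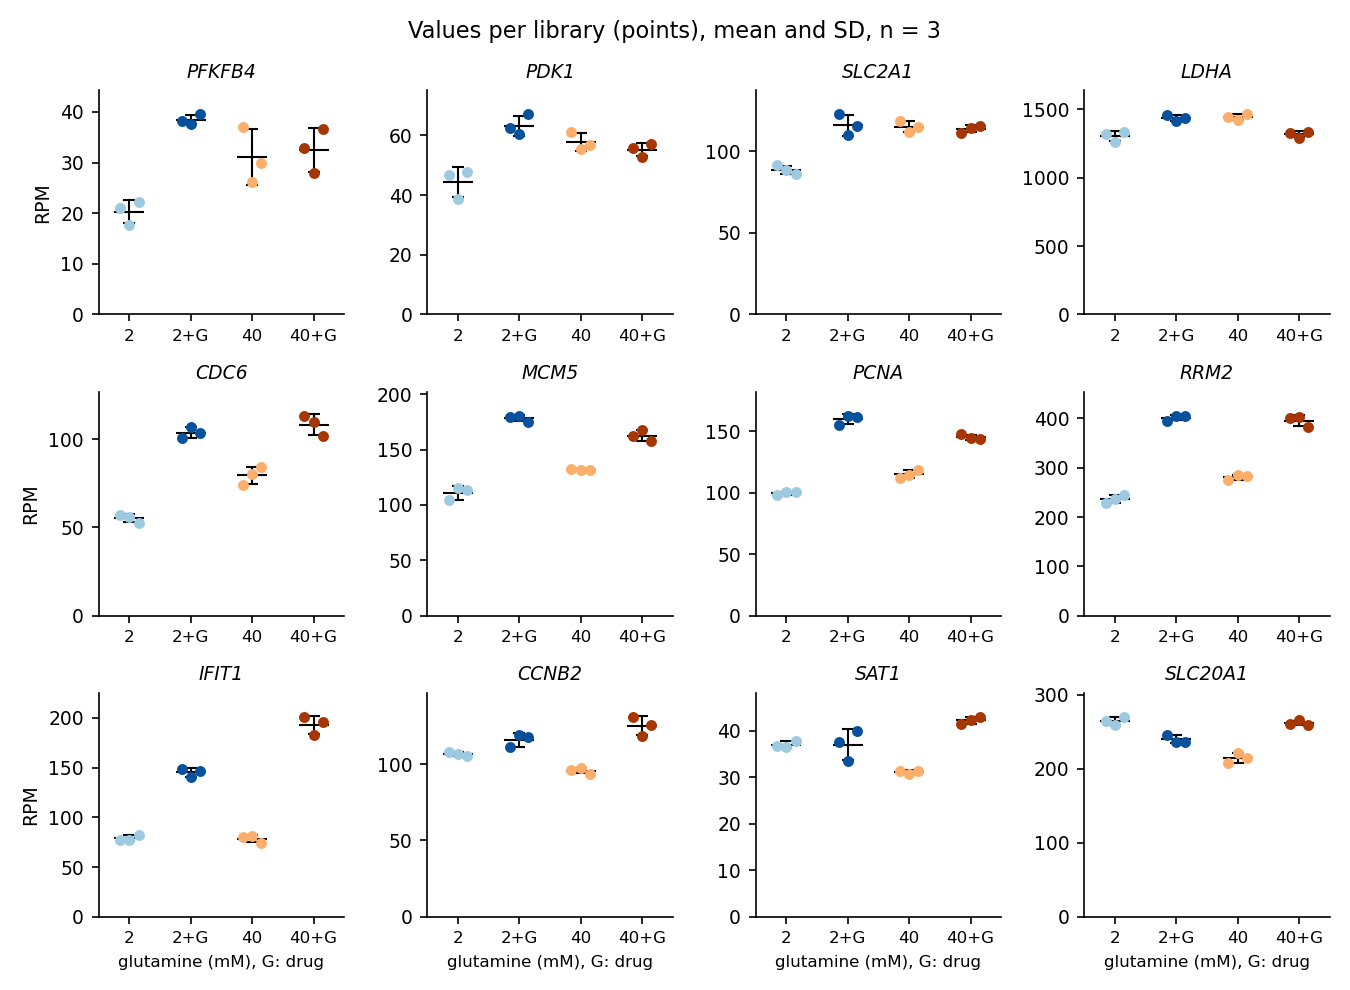
RPM of 12 genes in each of the 12 libraries (points), with the mean and SD of each group of 3; the x axis gives glutamine in mM and G marks gemcitabine, and each panel's y axis starts at 0. PFKFB4, PDK1 and SLC2A1 rise with drug at 2 mM and not at 40 mM, LDHA and SLC20A1 change direction, CDC6, MCM5, PCNA and RRM2 rise less at 40 mM, and IFIT1, CCNB2 and SAT1 rise more.

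Reversal of the drug response reached 17 genes. Their 2 drug responses had opposite signs under all 5 other scalings, but both passed in opposite directions under all 5 in 3 genes, SLC20A1, CLDN4 and GYS1. LDHA was classed as lost after cyclic loess and after trend removal, where its 40 mM response was -0.054 each time. The smallest adjusted p of all belonged to SLC20A1, a sodium-coupled phosphate carrier. It measured 265, 259.6 and 270.0 RPM at 2 mM without drug and 246, 236 and 237 RPM with drug. At 40 mM SLC20A1 measured 208, 221 and 215 RPM without drug and 261, 265 and 259 RPM with drug. With drug the level fell at 2 mM and rose at 40 mM, with no overlap at either glutamine level, from -0.14 to 0.29 (interaction 0.43 ± 0.045, limma adjusted p = 4.66e-07). CLDN4, a tight junction protein, measured 161, 155 and 149.8 RPM at 2 mM without drug and 144, 137 and 141 RPM with drug. At 40 mM CLDN4 measured 103, 90.8 and 86.4 RPM without drug and 109, 107 and 120.3 RPM with drug. Its drug-treated libraries lay below the untreated ones at 2 mM and above them at 40 mM, at a lower level throughout at 40 mM (interaction 0.40 ± 0.067, limma adjusted p = 0.000523). GFPT1, which takes its nitrogen from glutamine in the rate-limiting step of hexosamine synthesis, went from -0.11 to 0.11 (interaction 0.22 ± 0.059, limma adjusted p = 0.0343). The GFPT1 call ended after trend removal (adjusted p = 0.0697) and without 2 mM no-drug 1, 2 mM no-drug 2, 2 mM drug 1, 2 mM drug 2, 2 mM drug 3, 40 mM no-drug 2, 40 mM no-drug 3, 40 mM drug 1 or 40 mM drug 3 (interaction 0.20 to 0.23, adjusted p = 0.0536 to 0.0847).

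The reversed rises also included GYS1, muscle-type glycogen synthase, and PGM1, which links glucose-1-phosphate to glucose-6-phosphate, both neighbours of glycolysis. GYS1 measured 149, 140.3 and 149 RPM at 2 mM without drug and 162, 158 and 154 RPM with drug. At 40 mM GYS1 measured 182, 168 and 170.5 RPM without drug and 148, 140.4 and 155 RPM with drug, and its drug response went from 0.11 to -0.23 (interaction -0.34 ± 0.055, limma adjusted p = 0.000341). PGM1 went from 0.14 to -0.14 (interaction -0.28 ± 0.054, limma adjusted p = 0.00295). The others were TMEM109 (0.23 to -0.12), FAHD1 (0.24 to -0.20), the complex I subunit NDUFB10 (0.16 to -0.15), the protein kinase A subunit PRKAR1B (0.16 to -0.14), the histone demethylase KDM2B (0.16 to -0.13), NT5DC2 (0.14 to -0.13) and AGFG2 (0.20 to -0.24). Falls that became rises were found, besides SLC20A1, CLDN4 and GFPT1, in the splicing kinase CLK1 (-0.20 to 0.18), in PAN2 (-0.16 to 0.19), a deadenylase subunit, and in the non-coding LOC105373945 (-0.42 to 0.34) and LINC00163 (-0.57 to 0.40). AGFG2, CLK1, PAN2 and both non-coding genes lay below the median level and were named after their values were seen. The calls of AGFG2, PAN2, KDM2B, NT5DC2 and PRKAR1B ended under 8, 7, 4, 2 and 2 omissions. KDM2B was classed as lost under each of the other scalings, and PRKAR1B under each except median-of-ratios size factors. AGFG2 was classed as gained after quantile normalization and with median-of-ratios size factors. On each library's own total the AGFG2 interaction did not pass (limma adjusted p = 0.0536). LINC00163 had the largest interaction of all, 0.97 ± 0.22, limma adjusted p = 0.0123, at 3.81 RPM on average in untreated 2 mM cells.

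The genes of the G1/S transition and of DNA replication mostly rose with gemcitabine at both glutamine levels, and 22 of them rose less at 40 mM. Of 65 tested members 60 rose at 2 mM and 56 at 40 mM (17.5% and 14.1% of all tested genes), with median responses of 0.44 and 0.29. For the interaction, 22 were below 0 and none above 0, against 1.47% and 0.727% of all tested genes, with a list median of -0.17. All 22 were weakened rises, and the other 43 members did not pass. Over the other settings with a mean-variance trend 17 to 23 members passed below 0 and none above 0. When each library was left out, 16 to 23 passed below 0. Without a mean-variance trend 0 members passed.

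CDC6, which loads the replicative helicase onto origins, measured 57.0, 56.1 and 52.6 RPM at 2 mM without drug and 101, 107 and 103 RPM with drug. At 40 mM CDC6 measured 74.0, 80.4 and 84.1 RPM without drug and 113, 109.6 and 102 RPM with drug. All drug-treated libraries lay above all untreated ones, the 2 drug-treated groups overlapped, and the untreated 40 mM group lay above the untreated 2 mM group. The drug response was 0.90 ± 0.048 at 2 mM and 0.44 ± 0.048 at 40 mM (interaction -0.46 ± 0.067, limma adjusted p = 0.000119). MCM5, a subunit of that helicase, measured 104, 115 and 114 RPM at 2 mM without drug and 179.6, 181 and 175 RPM with drug. At 40 mM MCM5 measured 132, 132 and 132 RPM without drug and 162, 168 and 158 RPM with drug. Its 40 mM libraries with drug lay below the 2 mM libraries with drug, while those without drug lay above (interaction -0.38 ± 0.053, limma adjusted p = 6.37e-05). PCNA, the sliding clamp of the replicative polymerases, measured 98.1, 100.23 and 100.34 RPM at 2 mM without drug and 155, 162 and 161 RPM with drug. At 40 mM PCNA measured 112, 115 and 119 RPM without drug and 147, 144 and 143 RPM with drug. It showed the same order of groups as MCM5, with a response of 0.67 ± 0.036 at 2 mM and 0.33 ± 0.036 at 40 mM (interaction -0.34 ± 0.05, limma adjusted p = 0.000119).

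All 6 subunits of the MCM2 to MCM7 helicase ring were tested, and MCM2, MCM3, MCM4, MCM6 and MCM7 were weakened beside MCM5, with drug responses of 0.52 to 0.31, 0.57 to 0.33, 0.62 to 0.35, 0.39 to 0.14 and 0.56 to 0.33 from 2 mM to 40 mM. MCM10, which joins the helicase at origin firing, went from 0.84 to 0.47, and the helicase partner GINS2 from 0.57 to 0.29. Both tested large subunits of the chromatin assembly factor CAF-1 were in the set, CHAF1A (0.62 to 0.24) and CHAF1B (0.42 to 0.16), as was UHRF1 (0.61 to 0.29), which carries DNA methylation across replication. Enzymes of the lagging strand were represented by the flap nuclease FEN1 (0.66 to 0.36), the ligase LIG1 (0.45 to 0.17) and the polymerase alpha subunit POLA2 (0.70 to 0.41). The rest were FAM111B (0.87 to 0.45), RRM2 (0.76 to 0.49), TK1 (0.65 to 0.33), DTL (0.64 to 0.40), E2F2 (0.64 to 0.26) and ORC1 (0.65 to 0.35).

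Of these 22 calls, 15 passed with every library left out in turn. CHAF1B ended without 2 mM drug 1 (interaction -0.24, adjusted p = 0.0524), LIG1 without 2 mM no-drug 1 or 2 mM drug 1 (interaction -0.25 to -0.24, adjusted p = 0.0643 to 0.066) and FEN1 without 2 mM no-drug 1, 2 mM drug 1, 2 mM drug 2, 40 mM no-drug 3 or 40 mM drug 1 (interaction -0.29 to -0.22, adjusted p = 0.053 to 0.0724). The calls of DTL, E2F2, ORC1 and POLA2, each with an adjusted p of 0.0325 to 0.0495, ended under 7, 9, 10 and 9 of the 12 omissions. These 4 and MCM2 also ended under at least 1 of the 5 other scalings.

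Promoter sequence was compared because E2F factors are the textbook regulators of this gene group. The letters TTTCCCGC or TTTGGCGC were searched on both strands in RefSeq's windows (build GRCh38.p14) from 250 bases before to 50 after each gene start. A match was present in 10 of the 19 weakened members with a window (52.6%), in 20 of 52 members of the list with a window (38.5%) and in 389 of the 9858 tested genes with a window (3.95%). Matches in 4 weakened genes are shown 5′ to 3′ on the gene's strand, with the match in capitals. Those of PCNA and GINS2 read as the reverse complement. Such a match is a description of sequence and does not show binding.
PCNA (chr20:5126654-5126701, minus strand, motif starting 59 bases before the gene start): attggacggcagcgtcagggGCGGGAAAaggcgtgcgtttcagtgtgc
MCM3 (chr6:52284889-52284936, minus strand, motif starting 174 bases before the gene start): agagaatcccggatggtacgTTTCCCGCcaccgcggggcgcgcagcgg
MCM6 (chr2:135876568-135876615, minus strand, motif starting 152 bases before the gene start): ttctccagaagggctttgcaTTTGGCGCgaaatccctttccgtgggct
GINS2 (chr16:85688958-85689005, minus strand, motif starting 31 bases before the gene start): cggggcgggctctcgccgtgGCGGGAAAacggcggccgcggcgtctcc

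The list of nucleoside transport and of enzymes acting on gemcitabine had 26 tested members, of which 4 had an interaction below 0 and none above 0 (1.47% and 0.727% of all tested genes), and all 4 were weakened rises. RRM2, the small subunit of ribonucleotide reductase, measured 229, 237 and 245 RPM at 2 mM without drug and 395, 406 and 404 RPM with drug. At 40 mM RRM2 measured 275, 285 and 283 RPM without drug and 401, 402 and 383 RPM with drug. Its drug-treated libraries overlapped between the 2 glutamine levels, while the untreated ones were higher at 40 mM, and its response was 0.76 ± 0.031 at 2 mM and 0.49 ± 0.031 at 40 mM (interaction -0.27 ± 0.044, limma adjusted p = 0.000386). TK1, the thymidine salvage kinase, measured 85.9, 91.1 and 88.1 RPM at 2 mM without drug and 134, 141 and 144 RPM with drug. At 40 mM TK1 measured 103, 92.0 and 96.3 RPM without drug and 116, 124 and 125 RPM with drug. Here both drug-treated groups were apart, with 40 mM lower, and the response was 0.65 ± 0.042 at 2 mM and 0.33 ± 0.042 at 40 mM (interaction -0.33 ± 0.06, limma adjusted p = 0.00154).

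SLC29A1, the equilibrative transporter ENT1 that carries gemcitabine into cells, measured 100.14, 103 and 93.0 RPM at 2 mM without drug and 128, 135 and 128 RPM with drug. At 40 mM SLC29A1 measured 93.6, 92.6 and 96.0 RPM without drug and 105, 108 and 100.04 RPM with drug. The drug raised it at both levels without overlap, by 0.40 ± 0.041 at 2 mM and 0.14 ± 0.041 at 40 mM, and the 40 mM libraries with drug lay near the untreated 2 mM ones (interaction -0.26 ± 0.058, limma adjusted p = 0.012). That call ended without 2 mM drug 2 (interaction -0.23, adjusted p = 0.0577). CTPS1, which uses glutamine to make CTP, went from 0.51 to 0.26 (interaction -0.24 ± 0.059, limma adjusted p = 0.0189), a call that ended on each library's own total and without 2 mM drug 1, 2 mM drug 2, 40 mM no-drug 3 or 40 mM drug 1 (interaction -0.24 to -0.21, adjusted p = 0.0508 to 0.0839).

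DCK, the kinase that activates gemcitabine, measured 21.5, 24.6 and 23.5 RPM at 2 mM without drug and 22.4, 23.2 and 24.5 RPM with drug. At 40 mM DCK measured 19.3, 25.3 and 21.3 RPM without drug and 25.5, 28.9 and 30.7 RPM with drug. The drug-treated 40 mM libraries were the 3 highest, but the interaction did not pass (0.35 ± 0.12, limma adjusted p = 0.111). It passed without 40 mM no-drug 2 (0.45, adjusted p = 0.0195). The interaction did not pass either for CDA, the deaminase that inactivates the drug (0.27 ± 0.26, limma adjusted p = 0.669), or for RRM1 (-0.07), TYMS (-0.28), DCTD (-0.065), SLC29A2 (-0.064), SAMHD1 (-0.053) or RRM2B (0.016). A p above the threshold does not show that these responses were equal at the 2 levels.

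Splicing factors gave 5 interactions below 0 and 2 above 0 among 46 tested members, against 1.47% and 0.727% of all tested genes. The 5 were serine-arginine and related RNA-binding proteins that rose with drug at 2 mM: SRSF6, SRSF2 and TRA2B were weakened, and SRSF1 and HNRNPH1 were lost. SRSF6 measured 149, 148 and 149 RPM at 2 mM without drug and 207, 214 and 212 RPM with drug. At 40 mM SRSF6 measured 181, 195 and 194 RPM without drug and 208, 206 and 200.1 RPM with drug. Its response fell from 0.50 to 0.11, with untreated libraries higher at 40 mM and drug-treated ones overlapping (interaction -0.40 ± 0.048, limma adjusted p = 7.26e-06). SRSF2 went from 0.40 to 0.12 (interaction -0.29 ± 0.049, limma adjusted p = 0.000525), SRSF1 from 0.31 to 0.066 (interaction -0.24 ± 0.043, limma adjusted p = 0.00121) and TRA2B from 0.30 to 0.10. The calls of SRSF6, SRSF2, SRSF1 and TRA2B were kept under all 12 omissions and the 5 other scalings, while that of HNRNPH1 ended after trend removal (adjusted p = 0.0635).

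The 2 splicing genes above 0 were CLK1 and CLK4, kinases that phosphorylate the same family of splicing factors. CLK1 measured 27.8, 24.0 and 26.2 RPM at 2 mM without drug and 21.95, 22.8 and 22.5 RPM with drug. At 40 mM CLK1 measured 23.4, 22.8 and 23.6 RPM without drug and 27.3, 27.0 and 25.5 RPM with drug, with drug-treated libraries lowest at 2 mM and above the untreated ones at 40 mM (interaction 0.39 ± 0.10, limma adjusted p = 0.0256). The call ended without 2 mM no-drug 1, 2 mM drug 1, 2 mM drug 3, 40 mM drug 1 or 40 mM drug 2 (interaction 0.34 to 0.39, adjusted p = 0.0549 to 0.0963). CLK4 went from -0.41 to 0.19 (interaction 0.60 ± 0.16, limma adjusted p = 0.0348), which ended under 9 of the 12 omissions and after trend removal, where its adjusted p was 0.0708.

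Most interferon-stimulated genes rose with gemcitabine at both levels, 44 of 52 tested members at 2 mM and 45 at 40 mM (17.5% and 14.1% of all tested genes), with medians of 0.53 and 0.73. The list's median interaction was 0.12, above that of all genes, and 38 of 52 values were positive. The test was passed by 3 members above 0, IFIT1, DDX60 and IFI6, all strengthened, and by 1 below 0, TRIM25, against 0.727% and 1.47% of all tested genes. The remaining 48 did not pass. The count above 0 was 1 to 5 when each library was left out in turn, and it was 1 without 2 mM no-drug 1, 2 mM drug 1, 2 mM drug 3, 40 mM no-drug 3, 40 mM drug 1 or 40 mM drug 2.

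The promoters of these 3 genes were examined for the interferon-stimulated response element in a simple form (GAAA, any 2 bases, GAAA), on both strands of the same RefSeq windows (build GRCh38.p14). It was present in all 3 genes, in 23 of the 38 list members with a window (60.5%) and in 264 of 9858 tested genes with a window (2.68%). A match per gene is shown 5′ to 3′ on the gene's strand, with the match in capitals (that of IFIT1 reads as the reverse complement).
IFIT1 (chr10:89392487-89392536, plus strand, motif starting 116 bases before the gene start): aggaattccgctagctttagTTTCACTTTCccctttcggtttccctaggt
DDX60 (chr4:168318811-168318860, minus strand, motif starting 88 bases before the gene start): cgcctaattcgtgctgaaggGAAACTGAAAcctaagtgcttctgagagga
IFI6 (chr1:27672319-27672368, minus strand, motif starting 156 bases before the gene start): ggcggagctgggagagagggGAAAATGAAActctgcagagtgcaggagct

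IFIT1, which binds RNA lacking the host cap methylation, measured 77.7, 76.8 and 82.7 RPM at 2 mM without drug and 149, 140.2 and 147 RPM with drug. At 40 mM IFIT1 measured 80.2, 81.2 and 74.5 RPM without drug and 201, 183 and 195 RPM with drug. The untreated groups overlapped and the drug-treated 40 mM libraries lay above all others. The drug response was 0.87 ± 0.042 at 2 mM and 1.28 ± 0.042 at 40 mM (interaction 0.41 ± 0.06, limma adjusted p = 0.000112), and the call was kept under all 12 omissions and 5 other scalings. DDX60, a helicase linked to RNA sensing, measured 15.6, 15.5 and 14.2 RPM at 2 mM without drug and 42.1, 45.6 and 41.3 RPM with drug. At 40 mM DDX60 measured 15.3, 20.9 and 14.6 RPM without drug and 66.7, 65.2 and 65.1 RPM with drug. The order of groups was that of IFIT1, with a response of 1.45 ± 0.082 at 2 mM and 1.91 ± 0.082 at 40 mM (interaction 0.46 ± 0.12, limma adjusted p = 0.0264). IFI6, a mitochondrial interferon-induced protein, measured 21.7, 20.7 and 21.2 RPM at 2 mM without drug and 37.9, 39.4 and 32.4 RPM with drug. At 40 mM IFI6 measured 22.4, 17.4 and 18.8 RPM without drug and 43.7, 43.7 and 45.6 RPM with drug (interaction 0.40 ± 0.11, limma adjusted p = 0.0423).

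The DDX60 call ended without 2 mM no-drug 1, 2 mM drug 1, 2 mM drug 3, 40 mM no-drug 1, 40 mM no-drug 3, 40 mM drug 1 or 40 mM drug 2 (interaction 0.37 to 0.46, adjusted p = 0.0593 to 0.11). The IFI6 call ended without 2 mM no-drug 1, 2 mM no-drug 3, 2 mM drug 1, 2 mM drug 3, 40 mM no-drug 2, 40 mM no-drug 3, 40 mM drug 1, 40 mM drug 2 or 40 mM drug 3 (interaction 0.31 to 0.42, adjusted p = 0.0544 to 0.162). TRIM25, a ubiquitin ligase of the RIG-I pathway, went from 0.16 to -0.032 (interaction -0.19 ± 0.047, limma adjusted p = 0.0184), and its call ended under 4 omissions, after quantile normalization, on each library's own total, after cyclic loess and after trend removal. ISG15, the ubiquitin-like modifier, measured 38.6, 36.4 and 36.9 RPM at 2 mM without drug and 139, 136 and 132 RPM with drug. At 40 mM ISG15 measured 45.7, 38.2 and 42.6 RPM without drug and 168, 165 and 180.1 RPM with drug, an interaction of 0.17 ± 0.07, limma adjusted p = 0.243, and OAS3 had 0.20 ± 0.09, limma adjusted p = 0.274. After trend removal 7 members of the list passed above 0 and none below, ISG15 among the 7.

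Mitotic genes also mostly rose with gemcitabine, and their interactions that passed were above 0. Of 62 tested G2/M members, 51 rose with drug at 2 mM and 58 at 40 mM (17.5% and 14.1% of all tested genes), with medians of 0.25 and 0.34. For the interaction 11 passed above 0 and none below 0, against 0.727% and 1.47% of all tested genes, with a list median of 0.08. Rises were strengthened in 9 and gained in 2, ECT2 and NEK2, and 51 members did not pass. The counts above 0 were 11 to 17 over the other settings with a mean-variance trend and 0 without that trend. They were 5 to 13 over the 12 omissions, the lowest, 5, without 2 mM drug 1.

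HMMR, a spindle-associated hyaluronan receptor, measured 87.4, 87.8 and 87.6 RPM at 2 mM without drug and 108, 120.2 and 114 RPM with drug. At 40 mM HMMR measured 81.1, 83.0 and 82.1 RPM without drug and 131, 134 and 129 RPM with drug. The untreated libraries were lower at 40 mM and the drug-treated ones higher, without overlap, and the response was 0.38 ± 0.039 at 2 mM and 0.67 ± 0.039 at 40 mM (interaction 0.29 ± 0.056, limma adjusted p = 0.00249). CCNB2, a mitotic cyclin, measured 108, 107 and 105 RPM at 2 mM without drug and 111, 119 and 118 RPM with drug. At 40 mM CCNB2 measured 96.1, 97.2 and 93.7 RPM without drug and 131, 118 and 126 RPM with drug, with a response of 0.12 ± 0.04 at 2 mM and 0.38 ± 0.04 at 40 mM and overlap between the drug-treated groups (interaction 0.26 ± 0.056, limma adjusted p = 0.00774). CCNB1, the main partner of CDK1 in mitotic entry, measured 286, 302 and 296 RPM at 2 mM without drug and 312, 331 and 331 RPM with drug. At 40 mM CCNB1 measured 274, 278 and 277 RPM without drug and 348, 341 and 367 RPM with drug, with a response of 0.14 ± 0.032 at 2 mM and 0.35 ± 0.032 at 40 mM (interaction 0.21 ± 0.046, limma adjusted p = 0.00996).

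The others were the cytokinesis regulator ECT2 (0.053 to 0.27), the centrosome kinase NEK2 (0.058 to 0.35), the kinesins KIF20A (0.16 to 0.39) and KIF14 (0.14 to 0.39), the spindle checkpoint kinase BUB1 (0.14 to 0.35), the spindle kinase AURKA (0.10 to 0.34), securin PTTG1 (0.27 to 0.50) and the abscission protein CEP55 (0.25 to 0.46). Calls of CCNB1, NEK2, AURKA and PTTG1 ended without 2 mM drug 1, with adjusted p of 0.0537, 0.0552, 0.0575 and 0.0537, and those of CEP55 and KIF14 ended under 7 omissions each. All 11 calls were kept under the 5 other scalings. TROAP, a spindle protein outside the list, was also strengthened, from 0.23 to 0.59 (interaction 0.36 ± 0.075, limma adjusted p = 0.00584).

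**Figure D4:**
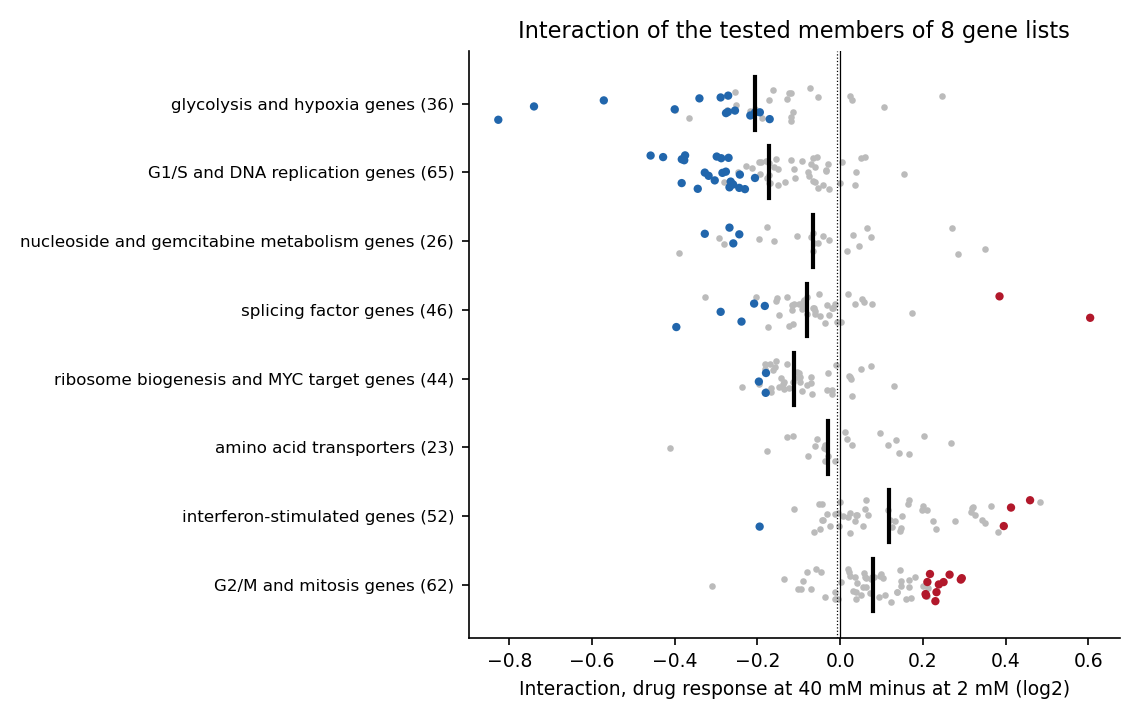
Interaction (log2) of the tested members of 8 gene lists, 1 point per gene, with the number of tested members in brackets; blue and red points passed below and above 0, grey points did not, thick bars are list medians, and the dotted line is the median of all genes. The glycolysis and hypoxia list and the G1/S list lie to the left, at medians of -0.21 and -0.17. Interferon and G2/M genes lie to the right, at 0.12 and 0.080.

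Rises gained at 40 mM reached 25 genes. SAT1, which acetylates the polyamines spermidine and spermine, measured 36.6, 36.5 and 37.8 RPM at 2 mM without drug and 37.5, 33.5 and 39.9 RPM with drug. At 40 mM SAT1 measured 31.2, 30.6 and 31.3 RPM without drug and 41.4, 42.3 and 42.9 RPM with drug. The 2 mM groups overlapped and the 40 mM groups lay on either side of them, lowest without drug and highest with drug (interaction 0.43 ± 0.084, limma adjusted p = 0.00283). SLC4A7, a sodium bicarbonate cotransporter, measured 69.4, 76.0 and 64.5 RPM at 2 mM without drug and 69.6, 73.2 and 67.5 RPM with drug. At 40 mM SLC4A7 measured 62.7, 62.1 and 63.3 RPM without drug and 78.5, 78.9 and 81.6 RPM with drug and had the same order (interaction 0.34 ± 0.069, limma adjusted p = 0.00568). UBALD2 (0.013 to 0.34), PABPC1L (0.073 to 0.52) and the centriole protein CNTRL (-0.066 to 0.19) gained rises too. The UBALD2 call ended without 2 mM drug 3, that of CNTRL under 9 omissions, and that of PABPC1L under 10 omissions, after quantile normalization and cyclic loess and with either other pseudocount. The PABPC1L call also ended with robust moderation of the variances and with either other filter. TXNIP, which restrains glucose uptake and is itself induced by glucose metabolites, measured 194, 168 and 189 RPM at 2 mM without drug and 204, 189 and 188 RPM with drug. At 40 mM TXNIP measured 152, 139 and 142 RPM without drug and 182, 168 and 190.0 RPM with drug. It was lower at 40 mM without drug and overlapped with drug (interaction 0.24 ± 0.065, limma adjusted p = 0.0432). The TXNIP call ended without 2 mM no-drug 1, 2 mM no-drug 3, 2 mM drug 2, 2 mM drug 3, 40 mM no-drug 2, 40 mM no-drug 3, 40 mM drug 1 or 40 mM drug 3 (interaction 0.20 to 0.23, adjusted p = 0.0713 to 0.14). It also ended with robust moderation of the variances.

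Strengthened rises included a gene of cell adhesion and matrix. CCN1, a secreted matrix protein and early response gene, measured 42.7, 42.2 and 42.1 RPM at 2 mM without drug and 59.3, 62.0 and 62.5 RPM with drug. At 40 mM CCN1 measured 28.6, 27.8 and 27.6 RPM without drug and 50.4, 54.3 and 50.4 RPM with drug. It was lower at 40 mM in both states, by -0.58 without drug and -0.24 with drug, so that its rise from the lower start was larger (interaction 0.34 ± 0.073, limma adjusted p = 0.0081). MDGA1 went from 0.35 to 0.68 (interaction 0.34 ± 0.084, limma adjusted p = 0.0254), a call that ended under 5 omissions.

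Immediate-early and growth-signalling genes had a median interaction of 0.12, with 28 of 37 tested members positive. Of the 37, CCN1 and JUN passed above 0 and JUND and MYC below 0, against 0.727% and 1.47% of all tested genes, and after trend removal 4 passed above 0 and none below 0. MYC, a driver of growth and metabolism genes, measured 237, 243 and 235 RPM at 2 mM without drug and 222, 232 and 229.9 RPM with drug. At 40 mM MYC measured 225, 219 and 223 RPM without drug and 185, 189 and 189 RPM with drug. The drug-treated 40 mM libraries were the lowest 3, and the fall passed at 40 mM and not at 2 mM (-0.066 ± 0.031 at 2 mM and -0.25 ± 0.031 at 40 mM, interaction -0.18 ± 0.044, limma adjusted p = 0.0213). The MYC call ended after quantile normalization, on each library's own total, after cyclic loess, after trend removal (adjusted p = 0.12) and without 2 mM no-drug 1, 2 mM drug 2, 2 mM drug 3, 40 mM no-drug 3 or 40 mM drug 1 (interaction -0.18 to -0.17, adjusted p = 0.0504 to 0.0789). JUN went from 0.043 to 0.23 (adjusted p = 0.044), a call that ended under 10 of 12 omissions, and JUND from 0.10 to -0.18 (adjusted p = 0.0184), which ended under 6 omissions and after trend removal. EGR1 rose at both levels and did not pass for the interaction (0.33 ± 0.11, limma adjusted p = 0.0883). The EGR1 interaction passed without 40 mM no-drug 2 (0.45, adjusted p = 0.0033) and with the replicate block and trend removal (0.36, adjusted p = 0.0383).

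Falls with drug that were smaller at 40 mM were few. EIF4A2, an RNA helicase of translation initiation, measured 541, 516 and 535 RPM at 2 mM without drug and 412, 409.9 and 409.6 RPM with drug. At 40 mM EIF4A2 measured 471, 483 and 467 RPM without drug and 439.9, 434 and 447 RPM with drug. It fell at both levels without overlap, by -0.37 ± 0.028 at 2 mM and -0.11 ± 0.028 at 40 mM (interaction 0.27 ± 0.039, limma adjusted p = 0.00012). KLHL24, a ubiquitin ligase adaptor, measured 62.3, 55.04 and 56.3 RPM at 2 mM without drug and 35.8, 33.9 and 35.4 RPM with drug. At 40 mM KLHL24 measured 58.3, 59.7 and 57.7 RPM without drug and 45.6, 43.2 and 45.1 RPM with drug. The untreated groups overlapped and the drug-treated ones were higher at 40 mM (interaction 0.32 ± 0.074, limma adjusted p = 0.013), and the call ended without 2 mM no-drug 1 (interaction 0.27, adjusted p = 0.0643). ARRDC3, an arrestin-domain protein of the TXNIP family, went from -0.60 to -0.18 (interaction 0.42 ± 0.092, limma adjusted p = 0.00907), the integrin ITGB4 from -0.33 to -0.16 and the mitochondrial NLRX1 from -0.44 to -0.17. Falls lost at 40 mM included the autophagy gene EPG5 (-0.40 to 0.00, adjusted p = 0.00868), the interferon-induced membrane protein IFITM1 (-0.39 to -0.079, adjusted p = 0.00584), the acetyl-CoA carrier SLC33A1 (-0.26 to 0.067), the clock gene PER3 (-0.44 to -0.14), STRN3 (-0.16 to 0.13) and the uncharacterised LOC101930276 (-0.59 to -0.15). The calls of ITGB4, NLRX1, SLC33A1, PER3 and STRN3 ended under 3, 10, 2, 9 and 9 omissions, and that of PER3 also after quantile normalization. That of NLRX1 also ended with a pseudocount of 4, without the level filter and with limma's voom weights on recovered reads.

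Falls that were gained or strengthened at 40 mM were spread over functions. ANXA11, a calcium-dependent membrane binding protein, measured 315, 325 and 318 RPM at 2 mM without drug and 275, 266 and 271 RPM with drug. At 40 mM ANXA11 measured 343, 357 and 339.7 RPM without drug and 256, 258 and 253 RPM with drug. It was higher at 40 mM without drug and lower with drug, and its fall grew from -0.24 to -0.44 (interaction -0.20 ± 0.042, limma adjusted p = 0.00774). Strengthened falls were also found in KDM4B (-0.13 to -0.40), TUBB2A (-0.10 to -0.33), ID1 (-0.12 to -0.32), RPS6KA4 (-0.24 to -0.44) and NR2F1 (-0.39 to -0.57), and of these TUBB2A, ID1, RPS6KA4 and NR2F1 no longer passed after trend removal, and KDM4B no longer after quantile normalization or on each library's own total. Gained falls included DHCR7, the last enzyme of cholesterol synthesis (-0.088 to -0.41, adjusted p = 0.00774), the membrane-bending BIN1 (-0.034 to -0.34, adjusted p = 0.00113), the mitochondrial ribosomal protein MRPS2 (0.11 to -0.25), B4GAT1 (-0.06 to -0.38) and WDR54 (0.11 to -0.19). The calls of MRPS2, B4GAT1 and WDR54 ended under 4, 8 and 9 omissions, that of B4GAT1 also after quantile normalization and on each library's own total, and that of WDR54 under those settings, after cyclic loess and after trend removal (adjusted p = 0.0585). Of other lost rises, RPUSD1 went from 0.43 to 0.026, FOXD1 from 0.45 to 0.064 and VGF from 0.38 to 0.032, and weakened rises outside the lists included ATAD3B (0.66 to 0.25) and PKMYT1 (0.58 to 0.18), the kinase that holds back CDK1. The VGF call ended after trend removal (adjusted p = 0.0587) and under 4 omissions, and the FOXD1 call ended under 9 omissions and under each other scaling except trend removal. The FOXD1 call also ended with either other pseudocount, with either other filter, with limma's voom weights on recovered reads and with the replicate block.

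Of the genes that handle glutamine itself, 3 metabolic genes passed and no transporter did. None of the 23 tested amino acid transporters passed, against 2.2% of all tested genes, a count too small to tell from that share. The list median was -0.03. Among them were the glutamine carriers SLC1A5 at -0.062, SLC38A1 at -0.078 and SLC38A2 at -0.038. The leucine exchanger subunits SLC7A5 and SLC3A2 had 0.018 and 0.10, and the cystine carrier SLC7A11 had 0.20. Of 27 tested genes of glutamine, glutamate and proline metabolism, GFPT1 passed above 0 and CTPS1 and GPT2, an alanine transaminase (0.22 to 0.00), below 0, which is 11.1% of the list against 2.2% of all tested genes. The GPT2 call ended after quantile normalization, on each library's own total, after cyclic loess, after trend removal (adjusted p = 0.0787) and without 2 mM no-drug 3, 2 mM drug 1, 2 mM drug 2, 40 mM no-drug 3 or 40 mM drug 1 (interaction -0.23 to -0.20, adjusted p = 0.0524 to 0.0955). Glutamine synthetase GLUL had 0.047 ± 0.24, limma adjusted p = 0.952. ASNS, which spends glutamine to make asparagine, measured 3.75, 3.54 and 3.71 RPM at 2 mM without drug and 1.72, 2.14 and 1.91 RPM with drug. At 40 mM ASNS measured 3.85, 2.64 and 2.35 RPM without drug and 2.48, 2.53 and 2.33 RPM with drug, with an interaction of 0.50 ± 0.21, limma adjusted p = 0.227 at this low level.

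The interaction passed in 2.2% of all tested genes, and lists of stress and death genes held no call. None of 33 tested p53 target genes, 20 NF-kappaB and cytokine genes, 28 NRF2 and redox genes or 18 BCL2 family genes passed, counts that are near that share for lists of this size. CDKN1A, the p21 inhibitor, rose by 0.84 ± 0.15 at 2 mM and 1.16 ± 0.15 at 40 mM and GDF15 by 0.40 ± 0.15 at 2 mM and 0.97 ± 0.15 at 40 mM, with interactions of 0.32 ± 0.21, limma adjusted p = 0.474 and 0.57 ± 0.22, limma adjusted p = 0.189. PMAIP1 had 0.064, ATF3 -0.15, DDIT3 0.05 and DDIT4 0.059. Among 57 DNA damage and repair genes, 2 passed below 0 and none above 0, among them the mismatch repair gene MSH6, which lost a rise (0.27 to 0.042, adjusted p = 0.00273).

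Genes of protein synthesis showed small shifts, and their calls or medians depended on the scaling. Of all tested genes, 0.727% passed above 0 and 1.47% below 0. The list counts in this paragraph are to be read beside these shares and were not tested against them. The 77 tested cytosolic ribosomal protein genes had a median of -0.071 with none passing, although 10 passed below 0 without 40 mM no-drug 2 (median -0.095) and 2 without 2 mM drug 1, and the median was 0 or above under at least 1 other scaling, up to 0.0072. Ribosome biogenesis and MYC target genes had a median of -0.11, and MYC, NOP56 and GNL3 passed below 0 among 44. That median stayed below 0 over the other settings with a mean-variance trend, at -0.12 to -0.065. No member of that list passed after quantile normalization, on each library's own total, after cyclic loess or after trend removal. Among 74 mitochondrial ribosomal protein genes, MRPS2, MRPL12 and MRPL20 passed below 0. Over the other settings 1 to 5 did with a mean-variance trend and 0 without it. The MRPL20 call ended under all 5 other scalings. The MRPL12 call ended after quantile normalization, on each library's own total, after cyclic loess and after trend removal. Over the 26 alternative fits, single-library omissions among them, the MRPL20 and MRPL12 calls ended under 17 and 11. In the keratin and adhesion list of 19, CLDN4 and ITGB4 passed above 0 and KRT8 below 0 (0.46 to 0.32). The KRT8 call ended after quantile normalization, on each library's own total, after cyclic loess, after trend removal (adjusted p = 0.229) and under 7 omissions, and its interaction of -0.14 was as small as -0.06 over these settings. The counts above and below 0 were 2 and 0 of 26 mesenchymal and matrix genes (CCN1 among them), 0 and 2 of 23 cholesterol synthesis genes, 0 and 2 of 24 purine and pyrimidine synthesis genes, 0 and 2 of 73 nuclear respiratory chain genes and 0 and 2 of 13 mitochondrially encoded genes. They were 0 and 1 of 31 ATF4 stress response genes, 0 and 1 of 25 unfolded protein response genes, 0 and 1 of 30 proteasome genes, 0 and 1 of 14 ID and SMAD feedback genes, 1 and 0 of 23 heat shock genes and 1 and 0 of 33 lysosome genes. No member passed among 20 aminoacyl-tRNA synthetases, 20 fatty acid synthesis genes, 22 snoRNA host genes, 13 MHC class I genes or 10 replicative histone genes.

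The 34 lists together held 89 of the 281 genes, and 192 were in none, while the lists held 1097 of the 12789 tested genes. Of the 281 genes, 269 were annotated as protein coding and 8 as long non-coding RNA. Among all 12789 tested genes these numbered 11478 and 762. All 8 long non-coding genes had an interaction above 0. Genes at or above the median level made up 242 of the 281, against 6395 of the 12789 tested genes.

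Base composition moved with the sign of the interaction. The median GC content of the annotated transcripts was 46.0% for genes above 0 and 55.2% for genes below 0, against 49.3% for all tested genes, known for 95.4% of tested and 97.2% of called genes. In 10 equal bins of genes ordered by GC content, the median interaction was 0.038 in the lowest bin and lay between -0.037 and -0.032 in the 4 highest. After removal of each library's trend with level, GC content and length, the bins' medians lay between -0.013 and 0.0040, and 200 of the 281 calls were kept, 81 of 93 above 0 and 119 of 188 below 0. The slope of log2 level on GC content, per 10 percentage points, was between -0.035 and -0.0067 in the 40 mM libraries with drug, -0.036 in 40 mM no-drug 2 and between 0.00070 and 0.027 in the other 8. With trend removal, 13 glycolysis and hypoxia genes and 20 G1/S genes passed below 0, and 16 G2/M genes above 0. None of the 3 lists had a call of the other sign.

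**Figure D5:**
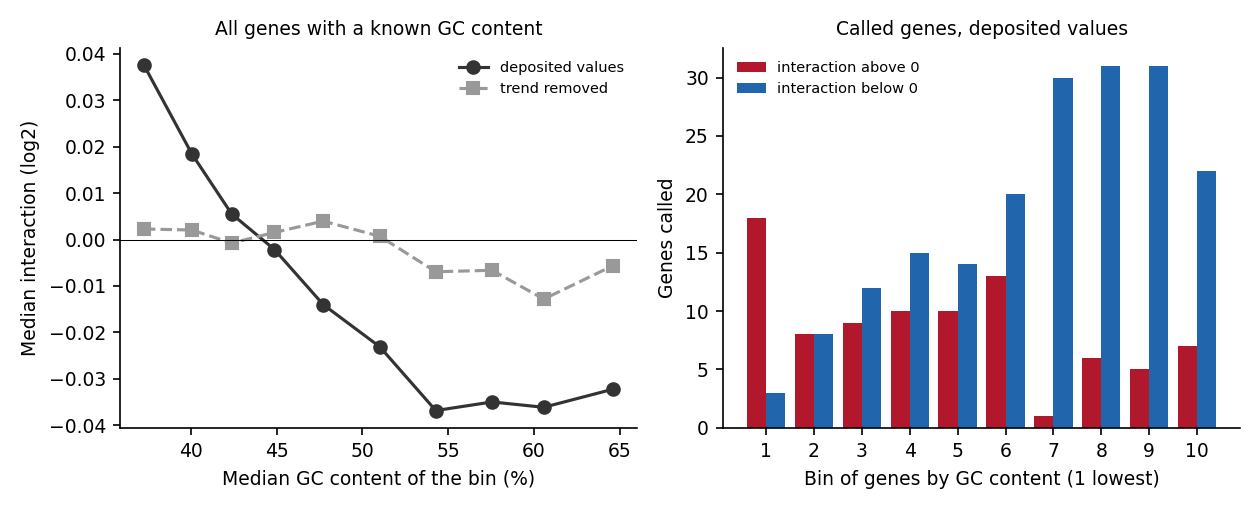
Left, median interaction (log2) of 10 bins of the tested genes ordered by GC content, on the deposited values (circles) and after trend removal (squares), against the bin's median GC content in percent. Right, genes called above 0 (red) and below 0 (blue) in each bin on the deposited values; 3 genes were called below 0 in the lowest bin and 22 to 31 in the 4 highest.

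Leaving out single libraries changed the number of calls. With each library left out in turn, 155 to 366 genes passed, and 99 of the 281 calls (35.2%) held under all 12 omissions, 90 of them also under all 5 other scalings. Of these 90, 29 were weakened, 25 lost, 15 gained, 11 strengthened and 10 reversed. All of these fits used a mean-variance trend, and without it 0 of the 281 calls were kept. The count fell by more than 1.5 times without 2 mM no-drug 1 (165), 2 mM drug 1 (155), 2 mM drug 2 (157), 2 mM drug 3 (180), 40 mM no-drug 3 (165) or 40 mM drug 1 (174), each of which also takes away residual degrees of freedom. It was highest without 40 mM no-drug 2, the library with the steepest GC slope.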

How the data were processed

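Total RNA of 12 MIA PaCa-2 libraries was sequenced by a service company, per the labels' protocols. The authors deposited log2 values per gene, equal to log2(RPM + 1) with a scaling per library, the aligner, counter, genome build and scaling method each not given in the sources used here. Undoing the log gave whole multiples of 1 read for 100% of values in each library (tolerance 0.05 reads), and recovered reads ran from 21723094 to 32811746. RPM values printed here are the deposited values with the log undone. Levels are not per length and are compared within a gene.

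The 4 group means were fitted to the deposited log2 values of all 12 libraries with limma 3.58.1 in R 4.3.3, with a mean-variance trend, after a filter of 1 RPM in 3 libraries. Contrasts were the 2 drug responses, the 2 glutamine differences and the interaction, with Benjamini-Hochberg adjustment over 12789 genes. Errors of differences are standard errors, n = 3 per group. The calculation was tested on simulated data. No count model was run, since the deposited unit is log2; limma's voom weights on recovered reads were an alternative. Replicates of a group differed by more than counting noise, with chi-square per degree of freedom from 2.36 to 5.43.

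The genes, classes and lists were chosen with earlier results of these data known. Named genes were up to 6 per class and sign by size of the interaction at or above the median level, all reversed genes, up to 4 per list with at least 3 calls by p, and a set list of drug and glutamine genes; other members named to complete a count were named after their values were seen. GC content and length were taken from GENCODE transcripts matched by symbol (14299 current names, 237 older names, 554 unmatched), which may not be the authors' annotation. Counting by strand is not given, so overlapping and near-identical genes (such as GAPDH, PKM, PGAM1 and histone copies) are uncertain. Alternatives were 4 other scalings, other pseudocounts (0.25 and 4), filters, thresholds, variance models, a replicate block, each library left out, and, chosen after seeing the data, subtraction of each library's smooth dependence on level, GC and length (trend removal). Values of 3 genes that the rule names or a list holds are not reported here.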

Additional observations from a re-analysis of the deposited data

Results flagged for a closer look

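The difference between the drug responses at 2 mM and 40 mM glutamine was tested as an interaction, and its results are listed here because the same contrast differed between 2 conditions. Limma called 93 genes above 0 and 188 below 0 at an adjusted p below 0.05. On the deposited values both drug responses passed in opposite directions in 17 genes. Under all 5 other scalings they did so in 3 of these, SLC20A1, CLDN4 and GYS1. Among the reversed genes at or above the median level, the interaction was 0.43 for SLC20A1, 0.40 for CLDN4 and 0.22 for GFPT1, where a fall became a rise. It was -0.27 for LDHA, -0.34 for GYS1, -0.28 for PGM1, -0.44 for FAHD1, -0.35 for TMEM109, -0.31 for NDUFB10, -0.30 for PRKAR1B, -0.29 for KDM2B and -0.27 for NT5DC2, where a rise became a fall.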

How the results depend on the processing

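None of the 281 interactions changed sign under any of the 26 alternative fits. The 281 were selected in these same libraries for interactions at least 3.57 standard errors from 0. A kept sign was therefore nearly fixed in advance and gives little support. Genes below 0 numbered 96 after quantile normalization (lost genes 67), 97 on each library's own total, 108 after cyclic loess and 125 after trend removal, against 188. Without a mean-variance trend limma called 0 genes above 0, 0 below 0 and 0 in each class; 1700 genes had an unadjusted p below 0.05 there and the smallest adjusted p was 0.051, while voom called 298 and robust moderation 331, with 1 gene in which neither drug response passed. At an adjusted p below 0.1 there were 169 genes above 0 and 345 below 0, with 116 gained, 195 lost, 52 reversed, 70 strengthened and 81 weakened; below 0.01 there were 25 and 66, with 22, 35, 3, 8 and 23. Requiring 1.2-fold left 58 above 0 and 89 below 0, with 27 gained, 59 lost, 14 strengthened and 31 weakened. Leaving out each library gave 47 to 103 above 0, 104 to 263 below 0, 35 to 104 gained, 48 to 147 lost, 9 to 26 reversed, 15 to 45 strengthened, 36 to 58 weakened and 0 to 3 with neither response passing. Same-numbered libraries of different groups correlated at -0.077 to 0.048 in their deviations, and differently numbered ones at -0.080 to 0.092. Of the 12 libraries, 7 correlated best with their own number. These values do not settle whether replicate numbers pair the samples, and the main fit used no pairing. With a replicate block 95 genes were above 0 and 211 below 0, and 275 of the 281 calls were kept; with the block and trend removal 144 were above 0. At 3 libraries a group, a gene with the median standard error of 0.097 needed an interaction of about 0.35 to pass.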
